A study of Mus musculus with 64 samples.

Results

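The mitochondrially encoded respiratory genes are the protein-coding genes of the mitochondrial chromosome whose products sit in the respiratory chain and the ATP synthase. 10 of them were chosen by name, mt-Nd1, mt-Nd2, mt-Nd4, mt-Nd5, mt-Nd6, mt-Cytb, mt-Co1, mt-Co2, mt-Co3 and mt-Atp6, and kept where a gene had at least 10 counts in 7 or more libraries. 7 of the 10 met that rule, among 15644 of the 55401 genes in the table that did. mt-Co2, mt-Co3 and mt-Atp6 did not, with at most 7, 8 and 4 counts in any library. The mitochondrial chromosome carries 13 protein-coding genes in all, with 2 rRNA and 22 tRNA genes.

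Mitochondria build the electron transport chain from subunits of 2 genomes, most from nuclear genes imported from the cytosol and a small core from the mitochondrial DNA. Both strands of that DNA are transcribed as long precursors that are cut at the tRNAs between the genes, after which most of the mRNAs receive a short poly(A) tail. In skeletal muscle these transcripts are among the most abundant, and oxidative fibers are known to hold more mitochondria than glycolytic fibers.

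RNA was measured in gastrocnemius muscle of mice aged 12 to 18 weeks on a C57BL/6JBomTac background, all of them homozygous for a Hif1a allele with loxP sites around exon 2. HIF1α KO mice also carried a Cre recombinase under the human α-skeletal actin promoter, which is active in muscle fibers, so other cells of the tissue keep Hif1a, and their fl/fl littermates carried no Cre. Mice of both genotypes either ran on a treadmill for 60 min, up to 16 m/min at a 5% incline, or spent the time on a mock treadmill (sedentary), early in the rest phase (zeitgeber time 3, ZT3) or early in the active phase (ZT15), and muscle was taken 3 h later. The 8 groups held 8 mice each, 4 of each sex, and 1 exercised HIF1α KO mouse at ZT3 (mouse 44, 382 counts in total, 30 of them on the genes described here) was left out of all 8-group fits unless stated.

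The 63 libraries held 2359780 to 40377963 counts each. Summed counts of 7 skeletal muscle markers ranged from 182194 to 312809 CPM (counts scaled to an equal total per library), summed T and B cell markers did not exceed 0.718 CPM, and the summed brown fat markers did not exceed 4.15 CPM. Hif1a itself stood at 25.9 to 57.3 CPM (median 34.96) in 32 fl/fl mice and 28.8 to 49.7 CPM (median 35.9) in 31 HIF1α KO mice, with a log2 difference of 0.00 ± 0.05 (SE). The groups overlapped, and because these counts cover every exon of the gene they do not check the deletion of exon 2, so the genotype of each library was taken from its label.

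Whether a read can be placed on a mitochondrial gene depends on nuclear copies of mitochondrial DNA, so the transcripts were compared with all annotated nuclear transcripts in windows of the read length, 52 bases (GENCODE M21 transcripts, GRCm38). Reads were not analysed here, so this describes the sequences only, and the mates of a read pair, which together cover more sequence than 1 window, were not considered jointly. Of the windows of mt-Co2, mt-Co3 and mt-Atp6, 100%, 99.9% and 99.5% were found without a mismatch in a nuclear transcript, and for mt-Nd4l and mt-Nd3 the share was 98.8% and 98.0%. These 5 genes had 0 to 8 counts in every library. mt-Nd4 shared 62.2% of its windows, mt-Co1 50.1%, mt-Nd2 7.90% and mt-Nd5 6.82%, while mt-Nd1, mt-Nd6 and mt-Cytb shared none. The 7 copies on chromosome 1 lie side by side on the reverse strand (chr1:24611535-24616197), in the order of the mitochondrial genes. 3 pairs of sequences show how close the copies are, first mt-Atp6 (chrM:7927-7986, forward strand) and its chromosome 1 copy Gm10925 (chr1:24614592-24614651, reverse strand), which were identical over all 678 bases of the copy. Next come mt-Co1 (chrM:6381-6440) with Gm29216 (chr1:24616138-24616197, reverse strand) and mt-Nd2 (chrM:4490-4549) with Gm13339 (chr2:22590426-22590485, reverse strand), with capitals at the bases that differ.
mt-Atp6: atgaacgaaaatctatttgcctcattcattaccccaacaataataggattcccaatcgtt
Gm10925: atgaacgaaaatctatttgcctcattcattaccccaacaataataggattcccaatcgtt
mt-Co1: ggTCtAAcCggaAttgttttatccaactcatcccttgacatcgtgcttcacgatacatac
Gm29216: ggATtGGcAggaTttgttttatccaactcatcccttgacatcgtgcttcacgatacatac
mt-Nd2: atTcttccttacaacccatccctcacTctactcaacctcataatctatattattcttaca
Gm13339: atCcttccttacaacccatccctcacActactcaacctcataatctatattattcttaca

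Counted from the first base of mt-Co1, all 6 substitutions in Gm29216 (T1056A, C1057T, A1059G, A1060G, C1062A and A1066T) fell within the first bases of the copy, and the rest of its 492 bases matched the mitochondrial gene. Counts on the copies were small beside those of the 7 genes. Gm28437 (copy of mt-Co3) had a median of 260 counts per library, Gm28661 (mt-Co2) 210, Gm29216 (mt-Co1) 191 and Gm10925 (mt-Atp6) 90. How the counting treated reads with several matches is not given in the sources used here, and its part in the low counts was not tested. mt-Atp8, with no shared window, had 1 count in all 63 libraries together. It overlaps mt-Atp6, and the copies of its neighbors, Gm10925 and Gm28661, lie 233 bases apart on chromosome 1, beside 230 bases between mt-Co2 and mt-Atp6 themselves.

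**Figure D1:**
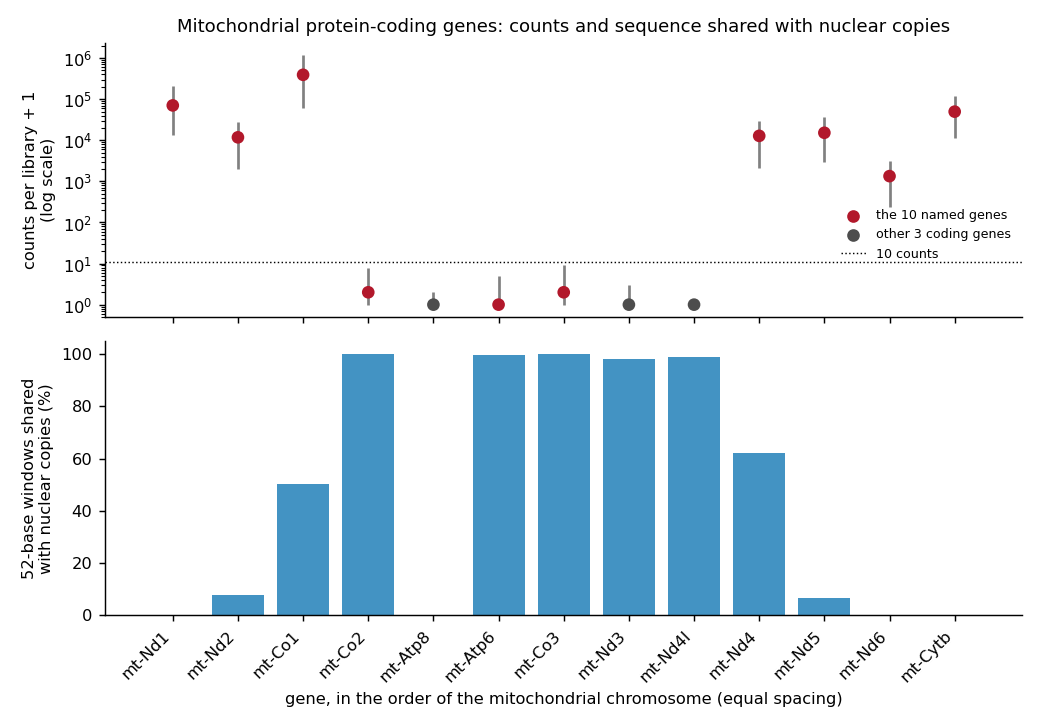
Counts per library plus 1 (top, log axis, dots are medians and lines run from the lowest to the highest of 63 libraries) and the percentage of 52-base windows also found in annotated nuclear transcripts (bottom) for the 13 mitochondrial protein-coding genes in chromosome order. The 7 genes above the dotted line of 10 counts share at most 62.2% of their windows, and 5 of the 6 genes below it share 98.0% or more, mt-Atp8 being the exception.

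The 7 genes with counts comprise 5 subunits of complex I (NADH dehydrogenase), 1 of complex III and 1 of complex IV. mt-Nd1 (chrM:2751-3707), mt-Nd2 (chrM:3914-4951), mt-Nd4 (chrM:10167-11544) and mt-Nd5 (chrM:11742-13565) encode membrane-arm subunits of complex I. mt-Cytb (chrM:14145-15288) encodes cytochrome b of complex III, and mt-Co1 (chrM:5328-6872) the catalytic subunit of cytochrome c oxidase. mt-Nd6 (chrM:13552-14070), a further complex I subunit, lies on the opposite strand to the other 6, overlaps the last bases of mt-Nd5, and is known to lack a stable poly(A) tail. The last 30 bases of 4 of the genes are shown because the tail is part of the stop codon in some of them, with capitals at the stop codon or the part of it that the DNA encodes.
mt-Co1: gaggaaccaacctatgtaaaagtaaaaTAA
mt-Nd4: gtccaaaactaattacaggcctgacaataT
mt-Cytb: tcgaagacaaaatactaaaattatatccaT
mt-Nd6: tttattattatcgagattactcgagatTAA

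mt-Nd4 and mt-Cytb ended in a single T after the last whole codon, which adenylation completes to TAA, whereas mt-Co1 and mt-Nd6 encode their whole stop codon. The reading strand of mt-Nd6 was also unlike the others in composition, with 43.7% T and 28.1% G against at most 16.1% G in the other 6.

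Per length, mt-Co1 was the most abundant of the 7. Its level over 63 libraries was 8231 to 25968 CPM per kilobase (median 15507), followed by mt-Nd1 at 1565 to 13968 (median 5315) and mt-Cytb at 693 to 10829 (median 3226). mt-Nd2 (median 614), mt-Nd4 (median 570) and mt-Nd5 (median 521) were close to each other, and mt-Nd6 was lowest at 80.2 to 593 (median 157). The order mt-Co1, mt-Nd1, mt-Cytb, mt-Nd2 held in 63 of 63 libraries at each step, and mt-Nd5 was above mt-Nd6 in 63 of 63. mt-Nd2 exceeded mt-Nd4 in 41 libraries and mt-Nd4 exceeded mt-Nd5 in 36, so these 3 neighbors did not keep an order. When only windows absent from nuclear transcripts counted as length, the median of mt-Co1 became 32160 and that of mt-Nd4 1564 CPM per 1000 windows, and mt-Nd4 then stood above mt-Nd2 in 63 of 63 libraries. Together the 7 genes took 1.85% to 5.59% of a library's counts (median 3.57%).

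The genes also differed in how much they varied between libraries. The SD of log2 CPM was 0.29 for mt-Co1, below the median of 0.36 over all 15241 genes tested. It was 0.57 for mt-Nd6, 0.60 for mt-Nd1, 0.71 for mt-Nd4, 0.76 for mt-Cytb and 0.86 for mt-Nd5. mt-Nd2 reached 1.06, a larger SD than 98.9% of the genes tested had. The highest library exceeded the lowest 33.8-fold for mt-Nd2 and 3.15-fold for mt-Co1.

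Much of this spread followed the mouse numbers in the sample titles and the level of mitochondrial rRNA. The titles number the mice 1 to 64, and the labels do not say what the numbers follow. In 4 consecutive blocks of 16 numbers, mt-Nd2 ranged from 384 to 2082 CPM (median 888) in the first, 139 to 664 (median 288) in the second, 279 to 4708 (median 727) in the third and 366 to 3836 (median 1138) in the fourth. The second block was the lowest at its median, and the blocks overlapped. The blocks explained 55.3% of the variance of log2 CPM for mt-Cytb, 42.3% for mt-Nd2, 37.7% for mt-Nd1 and 36.6% for mt-Nd4, each with an adjusted p of 3.5e-05, from an unadjusted p of 1e-05, the smallest that 100000 permutations can give. For mt-Nd5 the share was 27.4% (permutation test, adjusted p = 0.000784), for mt-Co1 13.9% (adjusted p = 0.0528) and for mt-Nd6 6.87% (adjusted p = 0.277). The 8 groups explained 7.45% (mt-Co1) to 25.9% (mt-Nd5), and only mt-Nd5 passed a threshold of 0.05 (permutation test, adjusted p = 0.0356). For mt-Nd2 the groups explained 24.1% (permutation test, adjusted p = 0.0528) and for mt-Nd4 21.5% (adjusted p = 0.0831). After block means were subtracted, the groups explained 19.9% for mt-Nd5 (permutation within blocks, adjusted p = 0.257). The blocks were unevenly spread over the groups: exercised fl/fl mice at ZT3 had 4, 0, 2 and 2 mice in the 4 blocks.

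mt-Rnr1 and mt-Rnr2, which encode the 2 mitochondrial rRNAs, took 0.712% to 11.6% of counts (median 3.87%), with block medians of 6.55%, 1.84%, 2.67% and 5.13%. Over 63 libraries, log2 CPM of mt-Nd2 correlated with the log2 of that share (r = 0.80, rho = 0.74), as did mt-Cytb (r = 0.76, rho = 0.66), mt-Nd4 (r = 0.75, rho = 0.68), mt-Nd5 (r = 0.70, rho = 0.62) and mt-Nd1 (r = 0.68, rho = 0.61), each with a permutation p adjusted over 14 correlations of 2.8e-05 for both measures. mt-Nd6 gave r = 0.48 (permutation test, adjusted p = 0.000163) and rho = 0.41 (adjusted p = 0.00233). mt-Co1 gave r = -0.19 (permutation test, adjusted p = 0.247) and rho = -0.22 (adjusted p = 0.156). Without the 2 libraries farthest from the median share, r was 0.77 for mt-Nd2, 0.47 for mt-Nd6 and -0.18 for mt-Co1. Within the 4 blocks, r lay between 0.55 and 0.90 for mt-Nd2 and between 0.22 and 0.95 for the other 5 genes that passed. mt-Co1 gave 0.73, -0.10, 0.14 and 0.16. Both axes share the library, its depth and the mitochondrial chromosome. A fit with this share as a covariate can therefore also remove a change common to mitochondrial RNA.

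**Figure D2:**
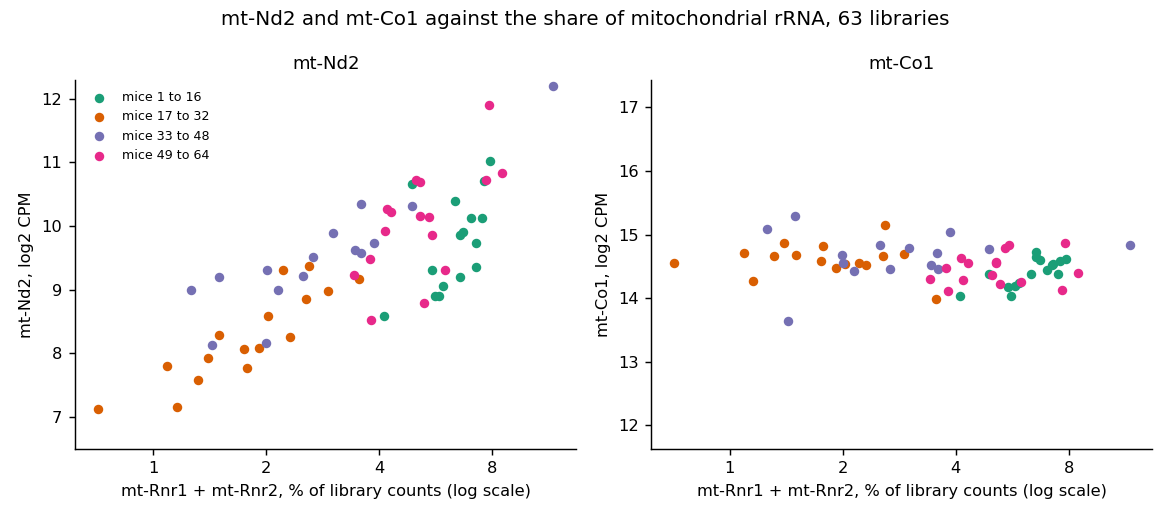
log2 CPM of mt-Nd2 (left) and mt-Co1 (right) against the percentage of library counts on mt-Rnr1 and mt-Rnr2 (log axis), 1 point per library, colored by block of 16 mouse numbers, with vertical axes of equal span. mt-Nd2 climbs with the share (r = 0.80) and the points of mt-Co1 show no rise (r = -0.19).

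A score of 9 slow-fiber genes, the transcripts of oxidative type I fibers, gave correlations that did not pass the threshold. Pearson r was -0.17 for mt-Nd1, -0.22 for mt-Co1 and -0.07 to 0.01 for the other 5 genes, with permutation p adjusted over the 14 correlations between 0.158 and 0.986. In each of the 4 blocks all 7 were below 0. Spearman's rho was -0.25 for mt-Co1 (permutation test, adjusted p = 0.0904) and -0.14 to 0.06 for the others. Without the 2 libraries farthest from the median score, r was -0.29 for mt-Co1 (permutation test, adjusted p = 0.0422), so its side of the threshold rested on those 2.

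Between the genes, the 15 pairs without mt-Co1 had r of 0.56 to 0.97 over the 63 libraries, highest for mt-Nd2 with mt-Nd4, and 0.55 to 0.95 after block means were subtracted. The 6 pairs with mt-Co1 had r of 0.13 to 0.37, and 0.25 to 0.63 within blocks. All of them share 1 chromosome, library and depth. Outside the mitochondrial chromosome, the genes most like the mean of the 7 were Nexn, which encodes an actin filament protein of the Z-disc (r = 0.87), Wac (0.85), Hspb6, a small heat shock protein (0.83), Hoxc10, a homeobox gene (0.82), and Eif3a, a translation initiation factor subunit (0.82). The least alike were Atp5e, the epsilon subunit of the ATP synthase (r = -0.88), and Ndufa2, a complex I subunit (-0.85). After block means were subtracted, Wac (0.81), Nexn (0.80), Eif5b (0.76), Ccnk (0.76) and Dnm1l, which divides mitochondria (0.74), were most alike, and Atp5e (-0.83), Rnh1, a ribonuclease inhibitor (-0.76), and Ndufa2 (-0.76) least. These are the extremes of all genes tested over 63 libraries.

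HIF1α KO and fl/fl mice were compared at each time and treatment, and on the average of these 4. On the average none of the 7 genes was called at an adjusted p under 0.1 (edgeR quasi-likelihood test), where 8.26% of all genes tested were called. 1 of the 7 had an unadjusted p under 0.05, beside 3105 of all genes, and DESeq2 called none. mt-Co1 ranged from 12717 to 29866 CPM (median 23544) in fl/fl mice and from 16825 to 40120 CPM (median 24244) in HIF1α KO mice, which overlapped. Its average log2 difference was 0.15 ± 0.06 (SE, adjusted p = 0.153). mt-Nd2 ranged from 139 to 3836 CPM (median 819) in fl/fl and from 191 to 4708 CPM (median 595) in HIF1α KO mice, with a log2 difference of -0.34 ± 0.25 (adjusted p = 0.456). The other 5 lay between -0.23 and 0.00. The median of the 7 was -0.11, beside a median near 0 (-0.00) of all genes, and its sign was not stable, at -0.0017 with the block, 0.030 with the mitochondrial rRNA share and 0.028 with both as covariates. In bulk muscle, fewer cells of a type and less RNA per cell cannot be told apart.

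Within the 4 combinations no gene was called either, where 0.4% of all genes were called in sedentary mice at ZT3, 1.43% in exercised mice at ZT3, 0.0459% in sedentary mice at ZT15 and 0.4% in exercised mice at ZT15. In exercised mice at ZT15, 4 of the 7 had an unadjusted p under 0.05 (1129 of all genes), and none did in the other 3 combinations. There, 1038 of all genes did in sedentary mice at ZT3, 2648 in exercised mice at ZT3 and 1610 in sedentary mice at ZT15. DESeq2 also called none in any of the 4. mt-Nd2 ranged from 142 to 1692 CPM (median 494) in exercised fl/fl and from 311 to 4708 CPM (median 925) in exercised HIF1α KO mice at ZT15, a log2 difference of 1.15 ± 0.50 (adjusted p = 0.569). In sedentary mice at ZT15 the range was 576.8 to 2082 CPM (median 1250) in fl/fl and 385 to 1612 CPM (median 620) in HIF1α KO, a difference of -0.87 ± 0.49 (adjusted p = 0.523). The ranges overlapped in both, and the sign differed between them. At ZT3 the differences were -0.72 ± 0.49 (sedentary) and -0.94 ± 0.52 (exercised). mt-Co1 differed by 0.09 to 0.23 in the 4 combinations (adjusted p 0.329 to 0.916).

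**Figure D3:**
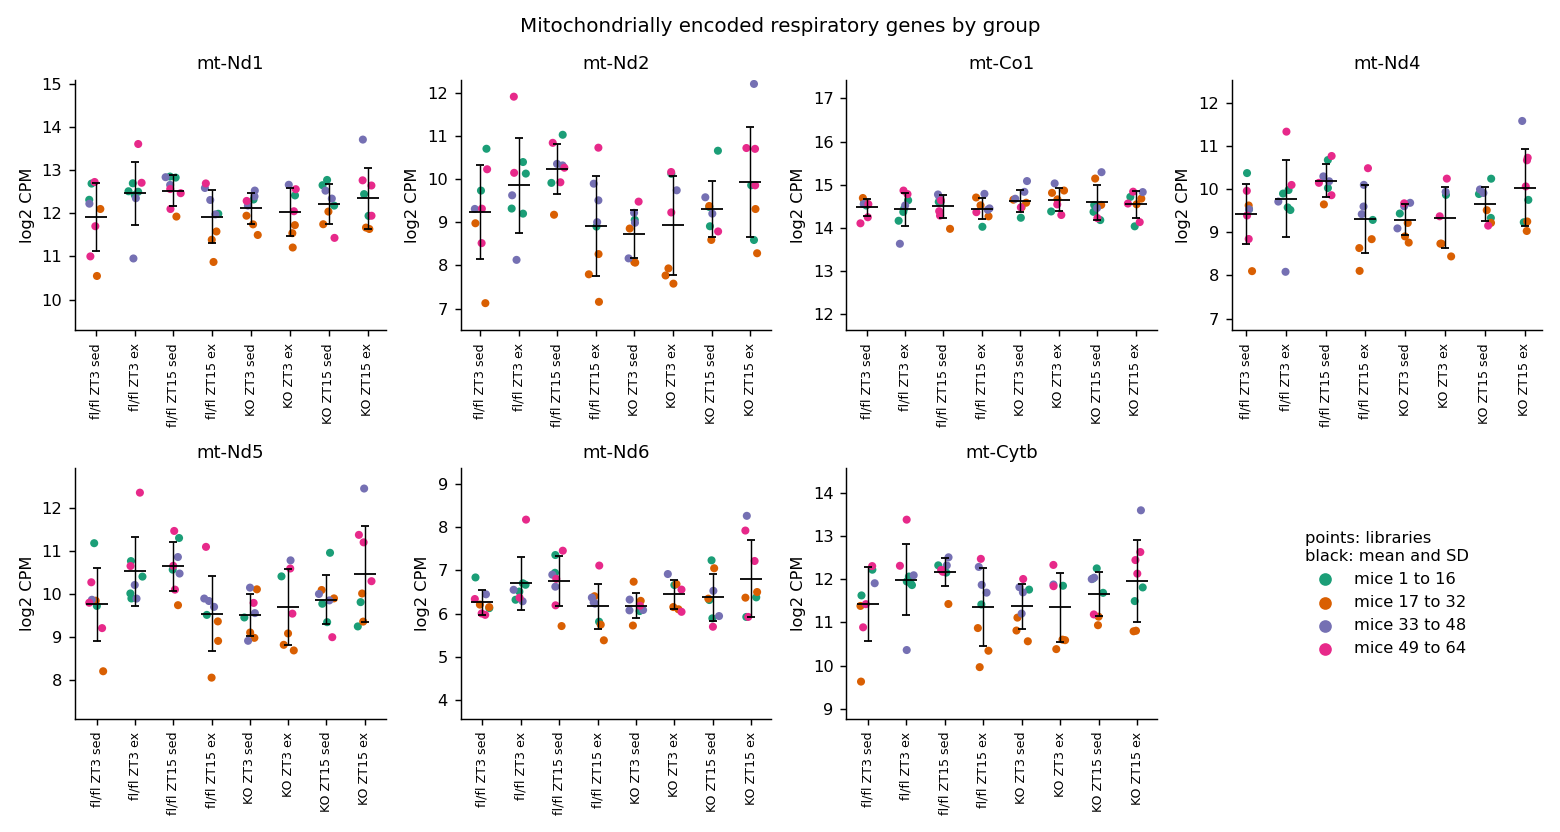
log2 CPM of the 7 genes by group, 1 point per library colored by block of 16 mouse numbers, with the mean and SD in black. All vertical axes have the same span. The points of the second block (mice 17 to 32) lie low for mt-Nd2, mt-Cytb and mt-Nd4, and mt-Co1 has the smallest spread.

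The comparison of ZT15 with ZT3 asked whether the genes differed between these times, with muscle taken 3 h after the treadmill or mock treadmill. A rhythm with equal levels at both times would be missed. None of the 7 was called on average (edgeR), where 8.02% of all genes were called, and DESeq2 called none. Unadjusted p was under 0.05 for 1 of the 7 and for 2666 of all genes. mt-Nd4 ranged from 271 to 2569 CPM (median 739) at ZT3 and from 275 to 3049 CPM (median 935) at ZT15, which overlapped, with a log2 difference of 0.34 ± 0.17 (adjusted p = 0.280). mt-Nd2 differed by 0.40 ± 0.25 (adjusted p = 0.419) and mt-Co1 by -0.03 ± 0.06 (adjusted p = 0.863). The median of the 7 was 0.24, beside -0.00 for all genes, and became 0.21 with the block, 0.12 with the rRNA share and 0.078 with both as covariates. Within strata the background was 1.88% in sedentary fl/fl, 1.18% in exercised fl/fl, 0.479% in sedentary HIF1α KO and 0.663% in exercised HIF1α KO mice, and none of the 7 was called by edgeR or DESeq2 in any. Unadjusted p was under 0.05 for 1, 2, 0 and 3 of the 7 in that order, and for 2427, 1900, 876 and 1623 of all genes. mt-Nd2 differed by 0.77 ± 0.49 in sedentary fl/fl, -0.94 ± 0.50 in exercised fl/fl, 0.62 ± 0.49 in sedentary HIF1α KO and 1.15 ± 0.52 in exercised HIF1α KO mice.

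Exercise was compared with the mock treadmill 3 h after the bout. None of the 7 was called on average (edgeR), where 2.84% of all genes were called, and DESeq2 called none. None of the 7 had an unadjusted p under 0.05, beside 1661 of all genes. Sedentary mice ranged from 296 to 2812 CPM of mt-Nd5 (median 927) and exercised mice from 267 to 5555 CPM (median 952), which overlapped, with a log2 difference of 0.27 ± 0.21 (adjusted p = 0.704). mt-Nd2 differed by 0.28 ± 0.25, mt-Nd6 by 0.21 ± 0.14 and mt-Co1 by -0.03 ± 0.06. The median of the 7 was 0.14, beside -0.00 for all genes, and became 0.057 with the block, -0.00081 with the rRNA share and -0.0052 with both as covariates. Within strata 0.236% of all genes were called in fl/fl at ZT3, 0% in fl/fl at ZT15 (1406 genes at an unadjusted p under 0.05), 0.131% in HIF1α KO at ZT3 and 0.0591% in HIF1α KO at ZT15, and none of the 7 by edgeR or DESeq2. Unadjusted p was under 0.05 for 0, 4, 0 and 3 of the 7 in that order, and for 2104, 1406, 772 and 845 of all genes. mt-Nd2 differed by 0.69 ± 0.49 in fl/fl at ZT3, -1.02 ± 0.49 in fl/fl at ZT15, 0.47 ± 0.51 in HIF1α KO at ZT3 and 1.00 ± 0.50 in HIF1α KO at ZT15.

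**Figure D4:**
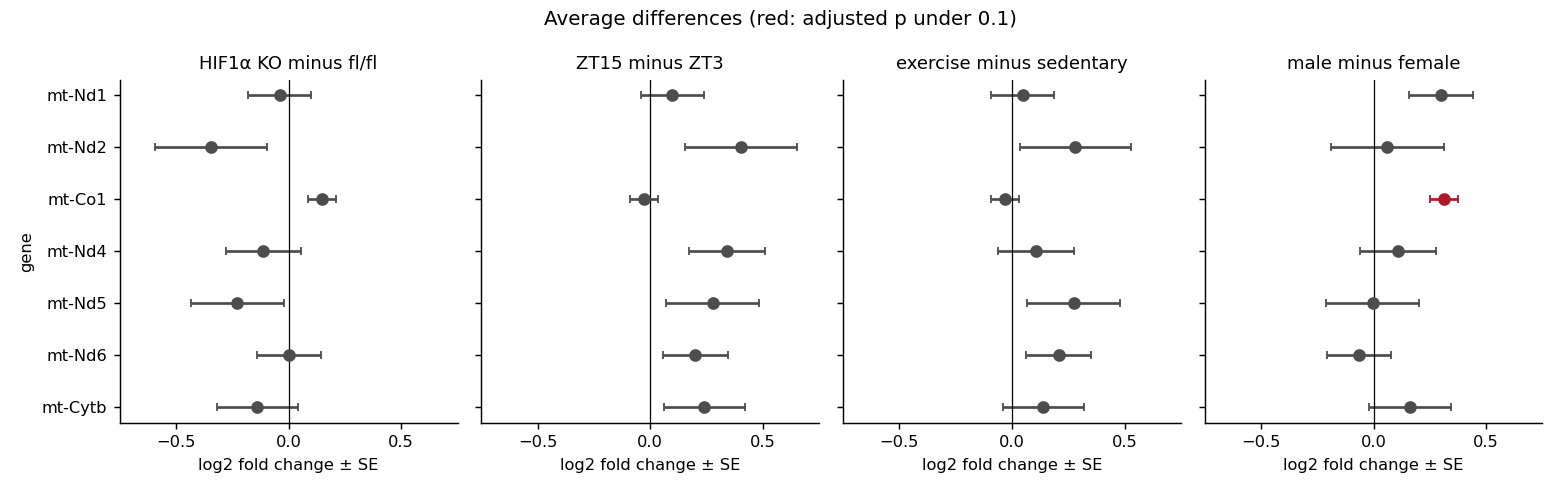
Average log2 fold changes with SE of the 7 genes for genotype, time of day, exercise and sex, red where the adjusted p is under 0.1. The only red point is mt-Co1 by sex (0.31), and the error bars of mt-Nd2 are the widest in each panel.

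The strata thus gave values of both signs, and the interaction terms tested those differences directly. In fl/fl mice, the exercise difference at ZT15 minus that at ZT3 was -1.77 ± 0.58 for mt-Nd5, -1.71 ± 0.70 for mt-Nd2, -1.20 ± 0.47 for mt-Nd4, -1.17 ± 0.51 for mt-Cytb, -1.16 ± 0.40 for mt-Nd6, -1.03 ± 0.39 for mt-Nd1 and -0.01 ± 0.17 for mt-Co1. 6 of the 7 had an unadjusted p under 0.05 and none was called (edgeR, adjusted p 0.149 to 0.988), where 0% of all genes were called and 2861 had an unadjusted p under 0.05. DESeq2 called mt-Nd5 (adjusted p = 0.0982) and mt-Nd6 (adjusted p = 0.0860), with 2.99% of all genes called. In edgeR, which had called neither, the values with the mitochondrial rRNA share as a covariate were -0.91 for mt-Nd5 and -0.68 for mt-Nd6. DESeq2 was not run with that covariate. The corresponding mt-Nd5 values were 296 to 2310 CPM (median 903) in sedentary and 950 to 5200 CPM (median 1267) in exercised fl/fl mice at ZT3, and 854 to 2812 CPM (median 1558) and 267 to 2178 CPM (median 781) at ZT15. The ranges overlapped at both times. Without mouse 52 (exercised fl/fl, ZT15) edgeR called 5 of the 7, and without mouse 7 (sedentary fl/fl, ZT3) 3. The share of all genes called in these fits is not given here, so these counts have no background to be read against.

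The 3-way term is the exercise by time term of HIF1α KO mice minus that of fl/fl mice. It gave 2.33 ± 0.83 for mt-Nd5, 2.24 ± 1.00 for mt-Nd2 and -0.11 ± 0.25 for mt-Co1, with a median of 1.57 and 6 of the 7 at an unadjusted p under 0.05. The median became 1.19 with the block, 0.64 with the rRNA share and 0.43 with both as covariates, and the highest value 1.89, 1.27 and 0.90. None was called by edgeR (adjusted p 0.269 to 0.869) or DESeq2, and 0% of all genes were by edgeR, with 2196 at an unadjusted p under 0.05 and 3 called by DESeq2. Of the other 8 interaction terms, edgeR and DESeq2 called none of the 7 in any, and 0% of all genes were called by edgeR. Unadjusted p was under 0.05 for 6 of the 7 in the genotype by time term of exercised mice (2323 of all genes), for 5 in the genotype by exercise term at ZT15 (1388 of all genes) and for none in the other 6. With block and rRNA share together as covariates, the values of the 7 genes in the 4 combinations drew in, from -0.94 to 1.15 without them to -0.48 to 0.40 for genotype, from -0.999 to 1.15 to -0.51 to 0.37 for time and from -1.02 to 1.00 to -0.35 to 0.47 for exercise. No gene was called in these 28 tests of each kind. The rRNA share itself differed between groups, with medians from 2.25% (sedentary HIF1α KO, ZT3) to 5.94% (exercised fl/fl, ZT3). In the exercise by time term of fl/fl mice, mt-Rnr1 gave -2.66 ± 0.96 and mt-Rnr2 -1.35 ± 0.63, neither called (edgeR). Smaller values with the share as a covariate thus do not separate a library difference from a change common to mitochondrial RNA.

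By sex, edgeR called mt-Co1, its only call among the 7 genes over the 26 comparisons when all 63 libraries were fitted by group and sex. mt-Co1 ranged from 12717 to 26875 CPM (median 21690) in 32 female mice and from 16702 to 40120 CPM (median 26506) in 31 male mice, which overlapped while the male median lay near the top of the female range. The log2 difference of male minus female was 0.31 ± 0.06 (edgeR, adjusted p = 7.78e-05), where 25.1% of all genes were called by sex and 13.3% were called higher in males. DESeq2, which called 26.6% of all genes, also called it, as the only 1 of the 7. The mean was higher in males in 8 of 8 groups, by 0.05 (sedentary fl/fl, ZT3) to 0.51 (exercised fl/fl, ZT3) on the log2 scale, and in 4 of 4 blocks, by 0.22 to 0.46. Leaving out any 1 library gave 0.29 to 0.33. With mouse 44 kept in, it was 0.26 (adjusted p = 0.134). mt-Nd1 ranged from 1498 to 6952 CPM (median 4636) in females and from 2678 to 13368 CPM (median 5787) in males, a difference of 0.30 ± 0.14 that was not called (adjusted p = 0.132). With the block as a covariate it was 0.31 and called (adjusted p = 0.0381), and its mean was higher in males in 4 of 4 blocks and 5 of 8 groups. The other 5 genes differed by -0.06 to 0.16.

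**Figure D5:**
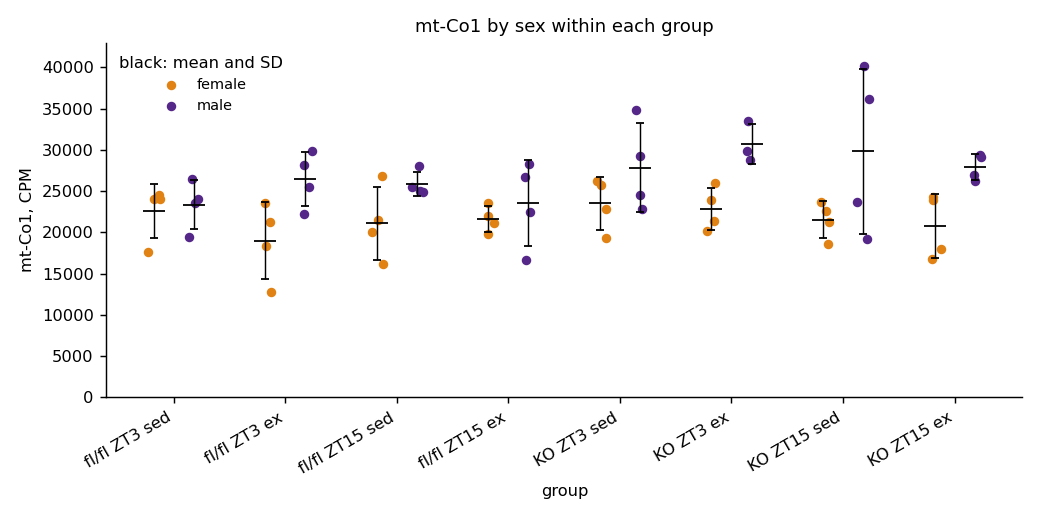
CPM of mt-Co1 in female (orange) and male (purple) mice within each group, 1 point per library, with the mean and SD in black and the axis starting at 0. Male means lie above female means in all 8 groups, and the sexes do not overlap in exercised HIF1α KO mice at either time.

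Other transcripts moved with sex in the same libraries. All 9 slow-fiber genes were lower in males, among them Myl2 (log2 difference -0.84 ± 0.15), Tnnt1 (-0.91 ± 0.16) and the slow myosin heavy chain Myh7 (-1.03 ± 0.19). Their summed level ran from 669 to 4384 CPM (median 1549) in females and from 352 to 2159 CPM (median 832) in males. With the slow-fiber score as a covariate the mt-Co1 difference was 0.39. Of marker lists for other cells, 3 of 4 adipocyte markers (Adipoq, Plin1 and Lep), 3 of 3 Schwann cell, 2 of 3 fibroblast and 1 of 3 tendon markers were lower in males, 3 of 5 red blood cell markers were higher, and none of the endothelial or macrophage markers was called (edgeR or DESeq2, none at an unadjusted p under 0.05). By sex, 25.1% of all genes were called, in either direction. The part of these markers in the mt-Co1 difference was not tested. In HIF1α KO mice 2 of 3 Schwann cell markers, among them Mbp (-0.44 ± 0.13), and 1 of 3 fibroblast markers, Pdgfra (-0.12 ± 0.04), were lower and none of either list was higher. 1 of 3 tendon markers, the factor Scx (0.34 ± 0.11), was higher and none lower, while the median of these 3 was -0.19. None of the adipocyte, red blood cell, macrophage or endothelial markers was called by genotype (edgeR or DESeq2), and 1 endothelial marker had an unadjusted p under 0.05. By genotype, edgeR called 8.26% of all genes in either direction and 4.68% higher in HIF1α KO mice.

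The nuclear partners of these subunits were read from the same fit. Of 78 tested nuclear genes for subunits of complexes I, III and IV and the ATP synthase, 35 were higher in HIF1α KO mice, where 4.68% of all genes were, and none lower (37 and none by DESeq2, and none lower at an unadjusted p under 0.05; median log2 difference 0.18), beside none of the 7 mitochondrial genes. With the block as a covariate 24 were higher (median 0.13), with the rRNA share 29 (median 0.13) and with both 31 (median 0.12), and none was lower. The share of all genes called in these covariate fits is not given here, so their counts have no background. The 35 included the complex I core subunits Ndufs3 (0.25 ± 0.06) and Ndufs7 (0.23 ± 0.06), Cyc1 and Uqcrc1 of complex III (0.20 ± 0.05 and 0.17 ± 0.05), Cox8b of complex IV (0.31 ± 0.08) and Atp5b, the catalytic subunit of the ATP synthase (0.19 ± 0.04). 3 of 4 subunits of complex II, which has no mitochondrially encoded part, were also higher. The difference between the nuclear and mitochondrial lists was not tested. The nuclear genes named here had SEs of 0.04 to 0.08. mt-Co1 differed by 0.15 ± 0.06, and the other mitochondrial genes had SEs of 0.14 to 0.25. Calls in the nuclear and mitochondrial lists were thus made at unlike precision. By time of day none of the 78 was called by edgeR or DESeq2, or had an unadjusted p under 0.05 (median -0.06), and with exercise only Atp5l was called (0.26 ± 0.06). edgeR called 8.02% of all genes by time and 2.84% by exercise. By sex 16 of 78 were higher in males, where 13.3% of all genes were, and none lower (17 and none by DESeq2, median 0.09). Among them were Uqcrc1 (0.25 ± 0.05) and Cox7a1 (0.31 ± 0.08). With the block as a covariate 25 were higher, and 42 with the rRNA share or both. These covariate counts have no background either, as the share of all genes called in those fits is not given here.

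Factors that make and process mitochondrial RNA were read in the same way, beside 4.68% of all genes that were called higher in HIF1α KO mice. Of 9 tested genes for mitochondrial transcription, 3 were higher in HIF1α KO mice, the elongation factor Tefm (0.27 ± 0.07), Tfb1m, which methylates mitochondrial rRNA (0.23 ± 0.06), and Tfam, which packages and helps transcribe mitochondrial DNA (0.16 ± 0.06). Of 22 for RNA processing, 6 were higher, with Ptcd3 (0.21 ± 0.05), Pde12, which removes poly(A) tails (0.25 ± 0.06), and Trmt10c, a subunit of mitochondrial RNase P (0.21 ± 0.06). Of 13 for mitochondrial DNA maintenance, 1 was higher, the exonuclease gene Mgme1 (0.24 ± 0.06), a share near that of all genes. With block, rRNA share or both as covariates these counts were 2 to 3, 5 and 1, and the share of all genes called in those fits is not given here. None of these 3 lists held a call by time of day or exercise with edgeR or DESeq2, where edgeR called 8.02% and 2.84% of all genes. Unadjusted p was under 0.05 for 2 of their genes by time (2666 of all genes) and 2 by exercise (1661 of all genes). By sex, Elac2, which cuts the 3′ ends of tRNAs (0.18 ± 0.04), Angel2 (0.14 ± 0.05) and Grsf1 (0.09 ± 0.03) were higher in males among the processing genes and 1 was lower, and Tfb1m was lower (-0.15 ± 0.06). Of the maintenance genes, Slc25a4, the muscle adenine nucleotide carrier (0.24 ± 0.06), was higher in males, and Twnk, the mitochondrial helicase (-0.35 ± 0.07), and Mpv17 (-0.24 ± 0.08) were lower. By sex, 13.3% of all genes were called higher in males and 25.1% in either direction, so these calls do not set the 3 lists apart.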

How the data were processed

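Poly(A)-selected, stranded RNA-seq libraries of gastrocnemius muscle from 64 mice were used, 63 after mouse 44 was left out. Per the submitters' processing notes, the authors used STAR, featureCounts and mm10, and they deposited raw gene counts without normalization. The methods describe paired-end sequencing of 52-base reads and also name single-end adapters. Versions, the strand setting and the treatment of reads with several matches are not given in the sources used here, so sense and antisense reads of mt-Nd6 may not be separated. Of 55401 gene IDs, 55141 matched GENCODE M21, the annotation used here for symbols, coordinates and transcript sequences. Genes passing filterByExpr (minimum count 10) were fitted with edgeR 4.0.16 (R 4.3.3; TMM factors, group plus sex, robust quasi-likelihood test, Benjamini-Hochberg within each contrast over 15241 genes, threshold 0.1). DESeq2 1.42.0 was the alternative tool. log2 CPM used a prior count of 2. Variance shares and correlations were tested with 100000 permutations of the libraries (two-sided for correlations, upper tail for variance) and adjusted over 14 tests, or over 7 within blocks. The edgeR steps were tested on simulated data. The genes and lists were chosen with earlier results of these data known. Other genes named were, of each list, at most 3 called per average contrast by smallest p, and the 5 most and 3 least correlated with the mean of the 7. In fits that leave out 1 library, the normalization factors and dispersions of the full fit were kept. Alternatives covered scaling, filters, covariates, libraries and tool. Each library is 1 mouse, and precision is limited by 7 or 8 mice per group and by totals of 2359780 to 40377963 counts, which include PCR duplicates. Some genes that these rules would also name are not reported here.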

Additional observations from a re-analysis of the deposited data

Results flagged for a closer look

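In groups of 7 or 8 libraries, a gap to the nearest other library above the 95% critical value of Dixon's test was found 17 times in 64 groups of values. The test was applied to CPM, not log2 CPM, and its critical value assumes normally distributed values. The genes also share libraries and correlate with each other. The 17 can therefore not be set against the 1 in 20 of independent normal values. Mouse 47 (exercised HIF1α KO, ZT15) was the highest of its group for mt-Nd1 (13368 CPM), mt-Nd2 (4708 CPM), mt-Nd4 (3049 CPM), mt-Nd5 (5555 CPM) and mt-Cytb (12388 CPM), and had the largest mitochondrial rRNA share, 11.6%. Mouse 50 (exercised fl/fl, ZT3) was the highest for mt-Nd1 (12454 CPM), mt-Nd2 (3836 CPM), mt-Nd4 (2568.5 CPM), mt-Nd5 (5200 CPM), mt-Nd6 (289 CPM) and mt-Cytb (10662 CPM), at an rRNA share of 7.81%. mt-Co1 stood apart in neither. Mouse 1 (sedentary HIF1α KO, ZT15) was the highest for mt-Nd2 (1612 CPM) and mt-Nd5 (1980 CPM), mouse 52 (exercised fl/fl, ZT15) for mt-Nd5 (2178 CPM) and mt-Nd6 (138 CPM), and mouse 7 (sedentary fl/fl, ZT3) for mt-Nd5 (2310 CPM). Mouse 17 (sedentary fl/fl, ZT15) was the lowest for mt-Cytb (2754 CPM).

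Nuclear copies of mitochondrial genes, which no comparison above uses, carried counts. The median per library was 260 for Gm28437, 210 for Gm28661, 191 for Gm29216, 172 for Gm13340, 139 for Gm28438, 93 for Gm13341, 90 for Gm10925 and 19 for Gm28439. Reads from a copy and from the mitochondrial gene it matches cannot be told apart where the sequence is shared.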

How the results depend on the processing

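No paired analysis was possible because the mouse numbers 1 to 64 are used once each and the groups share none. The number of the 7 genes called changed in few of the 26 comparisons. By sex it was 1, but 2 with the block of 16 mouse numbers, the rRNA share or both as covariates, which added mt-Nd1 (log2 difference 0.31, 0.28 and 0.25, adjusted p 0.0381, 0.0465 and 0.0423), and 0 with all 64 libraries (mt-Co1 0.26, adjusted p = 0.134). For exercise by time in fl/fl mice it was 0, but 2 with DESeq2 (mt-Nd5 -1.78, mt-Nd6 -1.18). Leaving out 1 library gave 1 to 2 by sex (2 without mouse 7, 20, 21, 52 or 64), 0 to 1 by genotype (mt-Co1, 0.16 without mouse 22 or mouse 64, adjusted p 0.0970 and 0.0990), 0 to 5 for exercise by time in fl/fl mice, and 0 for time, exercise and the 3-way term. These fits were not run for the other comparisons, and the share of all genes that they called is not given here.

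Small differences that were not called changed sign. With the block, mt-Nd1 by genotype was 0.0509 and mt-Nd5 by sex 0.0349. With the rRNA share, mt-Nd1 was 0.0583 and mt-Nd4 0.0297 by genotype, mt-Nd1 -0.0276, mt-Nd4 -0.0252 and mt-Cytb -0.00081 by exercise, and mt-Nd2 by exercise in HIF1α KO mice at ZT3 -0.0877. With both, mt-Nd1 was 0.0777, mt-Nd4 0.0370 and mt-Cytb 0.0278 by genotype, mt-Nd1 by time -0.00024, and mt-Nd1 -0.0052, mt-Nd2 -0.0089 and mt-Nd4 -0.0417 by exercise. mt-Nd6 by genotype, 0.00063 as reported, was -0.0052 with RLE factors, -0.0127 with at least 10 counts in every library, -0.0115 with the slow-fiber score, -0.0158 without the libraries of lowest depth, -0.0048 with library sizes from other chromosomes, -0.0039 with all 64 libraries and -0.0061 with DESeq2. mt-Co1 by time was 0.0188 with all 64 libraries, and mt-Nd5 by sex 0.00051 without the filter. Leaving out 1 library gave -0.109 to 0.00616 for mt-Nd1 and -0.0820 to 0.0894 for mt-Nd6 by genotype, -0.0165 to 0.0866 for mt-Nd1 by exercise, and -0.0915 to 0.183 for mt-Nd2 and -0.137 to 0.0865 for mt-Nd5 by sex. The cause of these changes was not tested.

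The median share of counts was 3.71% without the rRNA genes in the denominator. Mean levels moved from 15649 to 32454 for mt-Co1 and from 649 to 1783 for mt-Nd4 with windows absent from annotated nuclear transcripts as length. The correlation with the slow-fiber score without the 2 farthest libraries was -0.29 for mt-Co1 and -0.0098 for mt-Nd2. With block means subtracted, the groups explained 19.9% of the variance of mt-Nd5 (permutation within blocks, adjusted p = 0.257). Depth does not limit the 7 genes, which had at least 239 counts in each library, whereas the counts of mt-Co2, mt-Co3 and mt-Atp6 were too low for a test. The alternatives on block means, both covariates, covariates for the gene lists, windows and sex within blocks and groups were chosen after seeing the data.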

Other observations

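Of the 22 mitochondrial tRNA genes, 7 met the count rule. In the comparison of males with females, 5 of the 7 were called higher in males and none lower (edgeR, adjusted p under 0.1). Of all genes, 13.3% were called higher in males. Across the other 25 comparisons 1 call was made, lower at ZT15 than at ZT3 in exercised fl/fl mice, where 1.18% of all genes were called. A poly(A) selection is not designed to capture mature tRNAs, and whether these counts come from tRNAs or from precursors was not tested.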
